A study of Mus musculus with 6 samples.

Results

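The insulin-like growth factor axis was described in the mouse fibroblast line NIH/3T3 through 10 genes: the ligands Igf2 and Igf1, the receptors Igf1r and Igf2r, and the binding proteins Igfbp2, Igfbp3, Igfbp4, Igfbp5, Igfbp6 and Igfbp7. They are 10 of 17145 genes tested. Igf2 was chosen by its rise in 8KR cells on these same arrays, so its values are given as a description with no test, and the other 9 genes were taken by family name. Where a gene has several probe sets (groups of probes that read one transcript), the one with the highest mean over the 6 arrays was to be kept. Each of the 10 genes has 1 probe set that carries its symbol alone, so this mean decided nothing.

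The cells stably expressed HA-tagged mouse RPB1, the catalytic subunit of the polymerase that makes messenger RNA. In 3 samples the transgene was wild type, and in the other 3 it was 8KR, in which the lysines at position 7 of the C-terminal repeats are replaced by arginine. All samples were grown in DMEM with bovine calf serum and 2 µg/ml α-amanitin, which blocks the endogenous polymerase, and total RNA was hybridized to Affymetrix Mouse Gene 1.0 ST arrays. The samples are labelled as biological replicates, and no source used here says whether those of 1 genotype share 1 stably transfected population, so the p-values measure the spread between these samples.

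Insulin-like growth factors are secreted peptides related to insulin that drive growth and survival. Both ligands act through the receptor tyrosine kinase IGF1R, whereas IGF2R, the cation-independent mannose 6-phosphate receptor, carries IGF2 to lysosomes and has no kinase. Binding proteins hold the ligands outside the cell, and proteases release them. Igf2 is an imprinted gene of the fetus that is transcribed from the paternal copy and falls silent in most mouse tissues after birth, and Igf2r is transcribed mainly from the maternal copy.

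Mouse Igf2 has 4 transcription starts in the RefSeq promoter table (build GRCm38.p6). The windows before them are shown because the array has 1 probe set with the symbol Igf2, and from which start the transcripts it reads came was not tested. Each line gives the 250 bases before a start, 5′ to 3′ on the gene's strand. Capitals mark the GC box GGGCGG or its reverse complement and the TATA box TATAAA, searched on the gene's strand.

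Igf2 start A (chr7:142666817-142667066, minus strand): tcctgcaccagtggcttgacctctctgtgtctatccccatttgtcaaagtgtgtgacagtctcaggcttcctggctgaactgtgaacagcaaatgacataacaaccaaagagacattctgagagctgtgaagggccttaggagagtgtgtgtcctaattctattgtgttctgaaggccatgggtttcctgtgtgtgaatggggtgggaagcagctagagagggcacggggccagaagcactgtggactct
Igf2 start B (chr7:142661272-142661521, minus strand): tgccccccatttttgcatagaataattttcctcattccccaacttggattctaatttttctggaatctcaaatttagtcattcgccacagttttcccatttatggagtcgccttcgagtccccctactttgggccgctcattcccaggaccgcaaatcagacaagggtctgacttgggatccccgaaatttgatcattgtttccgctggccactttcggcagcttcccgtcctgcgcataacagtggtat
Igf2 start C (chr7:142658805-142659054, minus strand): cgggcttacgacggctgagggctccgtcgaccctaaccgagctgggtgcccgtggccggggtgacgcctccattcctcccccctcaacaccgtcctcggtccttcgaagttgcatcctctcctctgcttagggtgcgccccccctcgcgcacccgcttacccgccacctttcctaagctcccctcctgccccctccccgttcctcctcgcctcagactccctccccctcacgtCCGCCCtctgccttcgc
Igf2 start D (chr7:142657497-142657746, minus strand): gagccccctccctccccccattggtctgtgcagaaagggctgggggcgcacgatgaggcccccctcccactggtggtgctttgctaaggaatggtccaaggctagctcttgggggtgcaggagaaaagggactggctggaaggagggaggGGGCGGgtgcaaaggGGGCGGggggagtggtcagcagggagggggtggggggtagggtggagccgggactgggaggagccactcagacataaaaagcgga

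Start D holds 2 GC boxes and start C holds 1, whereas starts A and B hold neither motif. The content of G and C is 66.0% for D and 68.8% for C, against 47.6% for B and 50.8% for A. Over the 14 windows of the 10 genes, 6 (42.9%) hold a GC box, as do 32.7% of the 32851 windows of the table. A TATA box stands in 1 of the 14, that of Igfbp4, and in 7.59% of all windows. For comparison, the window of Igfbp6, the member with the largest fall, holds neither motif.

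Igfbp6 (chr15:102143936-102144185, plus strand): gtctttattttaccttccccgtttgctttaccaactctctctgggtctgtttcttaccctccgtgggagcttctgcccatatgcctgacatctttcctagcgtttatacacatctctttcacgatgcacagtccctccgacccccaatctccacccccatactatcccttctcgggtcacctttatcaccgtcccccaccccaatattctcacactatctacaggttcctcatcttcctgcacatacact

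The Igf2 gene also contains the microRNA gene Mir483, shown here with its seed (bases 2 to 8) in capitals because the array has a separate probe set for it.
mmu-miR-483-5p: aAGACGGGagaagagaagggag
mmu-miR-483-3p: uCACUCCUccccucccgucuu

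The labelled cell type was checked against its markers. Of 10 fibroblast markers, 9 were tested, and their mean log2 intensity over the list ran from 9.93 to 10.04 on the wild type arrays and from 9.74 to 9.75 on the 8KR arrays. Of these, Col3a1 (log2 difference -0.52) and Pdgfra (-0.75) were lower in 8KR cells at an adjusted p under 0.05 from limma. Lists of muscle, epithelial, endothelial, macrophage, liver and adipocyte markers had list means between 3.52 and 4.78 on every array, and none of the 25 genes tested in them passed in the limma fit (3 had an unadjusted p under 0.05). The study's methods treat a group mean of 3.0 as background. In these lists Ptprc and Adgre1 of macrophages, Kdr and Emcn of endothelium, Alb of liver, Adipoq of adipocytes and Myf5 of muscle lay at or below it. So did the fibroblast marker Fap. The 25 tested markers exceeded it in at least 1 group, among them Cd68 of macrophages (wild type mean 5.13), Apoa1 of liver (5.35) and Krt8 of epithelium (5.91). Low values of some markers thus do not show that other cell types were absent. Polr2a, which encodes RPB1 and whose probe set does not separate the transgene from the endogenous gene, had means of 12.10 and 12.13. The Y-linked genes Eif2s3y, Kdm5d and Uty had log2 differences of 3.34, 1.72 and 1.56. Kdm5d passed (adjusted p = 0.00908 from limma). The wild type means of Eif2s3y and Uty lay under 3.0. A gene was tested where at least 1 group mean exceeded that level, so both genes were kept through the 8KR arrays alone, and their differences are given as lower bounds with no test. Genotype and cell population cannot be told apart in any difference given here. In total RNA of a culture, more cells that express a gene and more RNA per cell cannot be told apart either.

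Igf2 was lower on every wild type array than on any 8KR array. Its wild type values still lay above the background level of 3.0 and above the median of every array, which was 4.49 to 4.54. Log2 intensities were 5.37, 5.03 and 4.81 in wild type cells and 10.02, 9.90 and 10.03 in 8KR cells. The lowest 8KR array lay 4.53 above the highest wild type array, and no values of the groups overlapped. The mean rose from 5.07 ± 0.28 (SD, n = 3) to 9.98 ± 0.08 (SD, n = 3), which is 30.2-fold. This log2 difference of 4.92 ranked 1 among all 17145 genes tested, which is the property by which the gene was picked. Leaving out any 1 array moved it between 4.79 and 5.07. The wild type arrays were also the more variable, and the pooled SD of Igf2 within groups was 0.21, where the median over tested genes was 0.14.

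**Figure D1:**
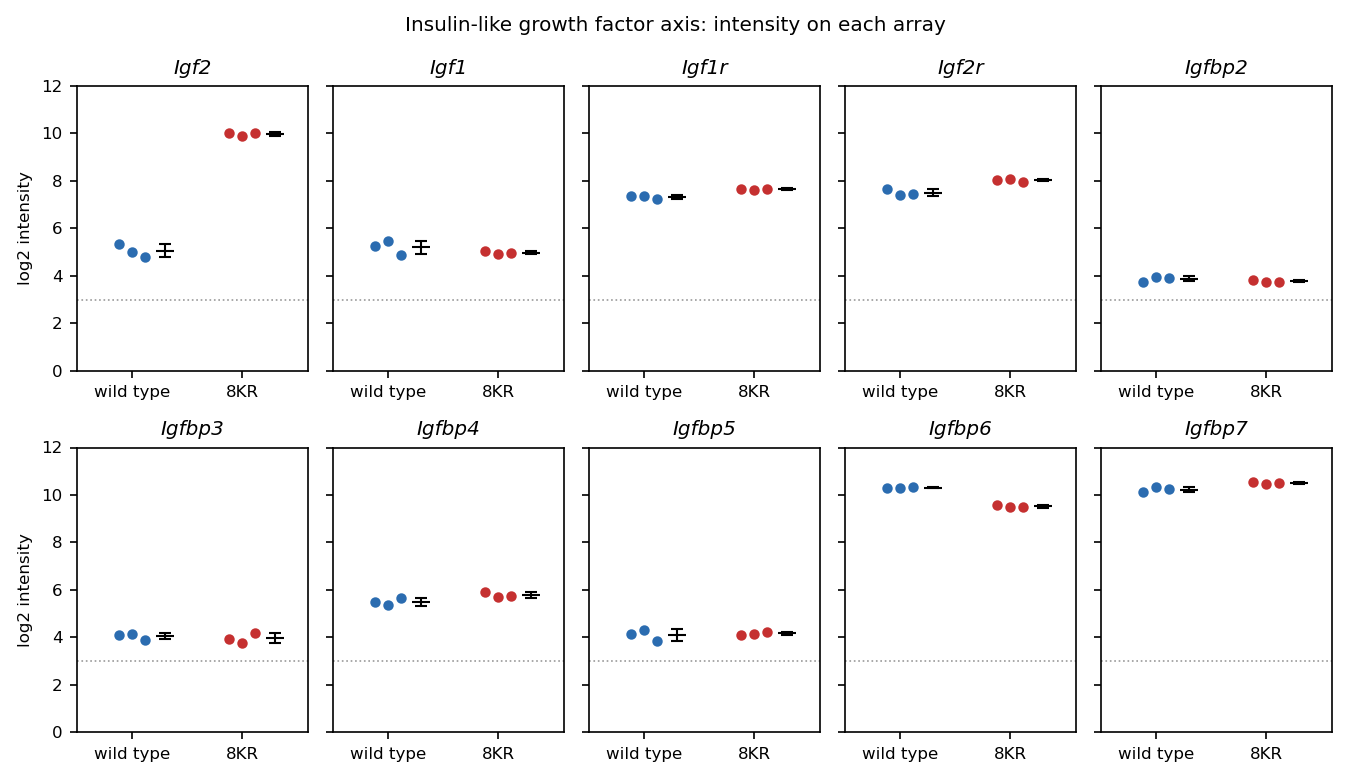
Log2 intensity (vertical axis, 0 to 12) of the 10 genes for each array, with wild type in blue and 8KR in red (3 points each). A short bar shows the mean, an error bar the SD, and a dotted line the background level of 3.0. Igf2 lies near 5 on the wild type arrays and near 10 on the 8KR arrays, whereas the other 9 genes differ between groups by less than 1.

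Igf1, the other ligand, did not pass. Its log2 intensities were 5.26, 5.45 and 4.90 in wild type and 5.07, 4.92 and 4.97 in 8KR cells. The lowest wild type array lay below all 8KR arrays while the remaining wild type arrays lay above them, so the groups overlapped. The log2 difference was -0.22 with a 95% confidence interval from -0.59 to 0.15 (adjusted p = 0.491 from limma). Without wild type replicate 2 the difference was -0.10 and without wild type replicate 3 it was -0.37.

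Igf2 ranked 1 among all 17145 genes tested, so the tested genes beside it could only have smaller rises, and their values are given as a description. In the RefSeq order along the chromosome, the 5 tested genes on each side were Tnni2, Lsp1, Prr33, Tnnt3 and Mrpl23 on one and Mir483, Ins2, Gm6471, Th and Ascl2 on the other. Their log2 differences ran from -0.24 for Tnnt3 to 0.87 for Lsp1, with a median of 0.10. By this order Mir483, which lies inside Igf2, counts as a neighbour. Prr33 had a wild type mean of 2.97 and was kept through the 8KR arrays alone. Ins2, Gm6471, Th and Ascl2 were dim, with group means between 3.43 and 4.47, under the median of every array. Lsp1, which encodes an actin-binding protein of white blood cells, was the only one of the 10 to pass (adjusted p = 0.0236 from limma). Over all tested genes 5.39% were called. The insulin gene Ins2, the nearest protein-coding neighbour on its side, had a log2 difference of 0.28 (adjusted p = 0.231). H19, an imprinted RNA gene on the opposite side, has no probe set with its own symbol and was not analysed here.

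**Figure D2:**
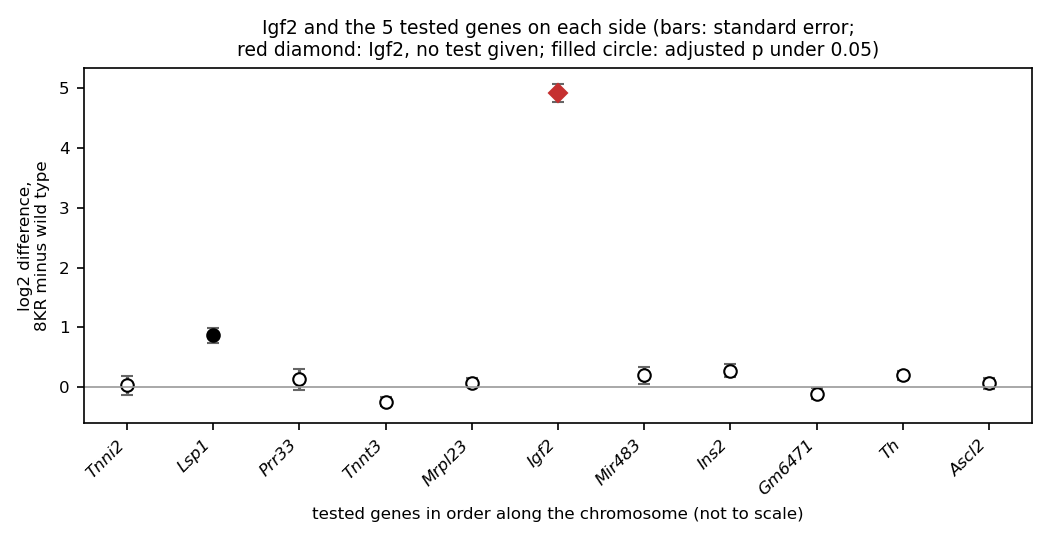
Log2 difference, 8KR minus wild type (vertical axis), of Igf2 (red diamond, no test) and the 5 tested genes on each side in chromosome order, not to scale, with standard errors as bars and filled circles for an adjusted p under 0.05. Igf2 stands at 4.92 and Lsp1 at 0.87, and the other 9 lie between -0.24 and 0.28.

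Mir483 gave a different pattern from the gene that contains it. Its log2 intensities were 5.60, 5.54 and 5.44 in wild type and 5.93, 5.83 and 5.43 in 8KR cells, and the third 8KR array lay below all wild type arrays. The log2 difference was 0.20 with a 95% confidence interval from -0.15 to 0.55 (adjusted p = 0.515 from limma). Which form of this RNA the probes read, precursor or host transcript, was not tested.

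By the root mean square difference of gene-centred log2 values over the 6 arrays, the genes most like Igf2 were Eif2s3y (0.82), Rab3c (1.06), Renbp (1.08), Cyp1b1 (1.29) and Pcdhb7 (1.39). For these 5 genes the log2 difference ran from 2.20 for Pcdhb7 to 3.34 for Eif2s3y. The wild type mean of Renbp (2.90) lay under the background level, as did that of Eif2s3y (2.56). The order is a description of 6 arrays in 2 groups and mostly reflects the size of the rise. The distances of the other 9 genes of the axis from Igf2 lay between 2.20 for Igf2r and 2.86 for Igfbp6. They too mostly reflect the rise by which Igf2 was picked.

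The receptors of the axis lay higher in 8KR cells. Igf2r had log2 intensities of 7.67, 7.39 and 7.47 in wild type and 8.05, 8.08 and 7.97 in 8KR cells. Every 8KR array lay above every wild type array, by at least 0.31. Igf2r rose by 0.53 on the log2 scale, or 1.44-fold (95% confidence interval 1.22 to 1.70, standard error 0.10, adjusted p = 0.0419 from limma). This call rests on all 6 arrays: without any 1 of them the adjusted p lay between 0.0568 and 0.129 while the difference stayed between 0.47 and 0.61.

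Igf1r, the signaling receptor, had log2 intensities of 7.37, 7.36 and 7.24 in wild type and 7.67, 7.60 and 7.68 in 8KR cells. The groups were 0.23 apart and did not overlap. The log2 difference of 0.33, or 1.26-fold (95% confidence interval 1.10 to 1.43), did not pass (adjusted p = 0.0730 from limma). It passed where at least 1 group mean had to exceed 5.0, where limma's variance followed intensity, and where only probe sets with a single symbol were tested. For Airn, an RNA transcribed antisense across Igf2r and looked up after the values were seen, the log2 difference was -0.14 with a 95% confidence interval from -0.64 to 0.37 (adjusted p = 0.782). None of the 10 tested genes beside Igf2r passed, and the nearest to it in size was Agpat4 with 0.59 (adjusted p = 0.0580). None of those beside Igf1r passed either. Over all tested genes 5.39% were called, so these counts do not set the neighbours apart.

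Among the binding proteins, Igfbp6 fell in 8KR cells. IGFBP6 binds IGF2 more tightly than IGF1. Its log2 intensities were 10.28, 10.31 and 10.34 in wild type and 9.60, 9.49 and 9.49 in 8KR cells. The arrays within each group were close together, with SDs of 0.03 and 0.06, and the groups were 0.69 apart. Igfbp6 fell by 0.79 on the log2 scale, so its intensity was 1.73-fold higher in wild type than in 8KR cells (standard error 0.07, adjusted p = 0.00623 from limma). The call was kept without any 1 array (adjusted p = 0.0292 to 0.0379). Of the 10 tested genes beside Igfbp6, 7 were lower in 8KR cells, and Tns2 and Rarg passed as lower, with Tns2 at -1.12. Over all 17145 tested genes 8269 had a negative log2 difference, and 3.06% were called lower. Whether the fall of Igfbp6 belongs to a wider shift of its neighbourhood was not tested.

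Igfbp7 and Igfbp4 lay slightly higher on the 8KR arrays without passing. Igfbp7, a family member that binds the growth factors only weakly, had log2 intensities of 10.11, 10.32 and 10.24 in wild type and 10.54, 10.47 and 10.49 in 8KR cells, and the groups were 0.14 apart. Its log2 difference was 0.27 with a 95% confidence interval from 0.07 to 0.47 (adjusted p = 0.144 from limma). Igfbp4, which holds both ligands away from their receptor, had 5.49, 5.35 and 5.66 in wild type and 5.91, 5.70 and 5.76 in 8KR cells. Its groups were only 0.04 apart, and the log2 difference of 0.29 had an interval from 0.02 to 0.56 (adjusted p = 0.224 from limma).

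Igfbp2, Igfbp3 and Igfbp5 were dim in both groups, with means between 3.77 and 4.17 on the log2 scale. These lie above the background level of 3.0 but under the median of every array, which was 4.49 to 4.54. Igfbp2, a carrier abundant in fetal tissues, had 3.75, 3.98 and 3.91 in wild type and 3.82, 3.76 and 3.74 in 8KR cells. Igfbp3, the main carrier in serum, had 4.12, 4.16 and 3.90 against 3.92, 3.79 and 4.19, and Igfbp5, which also binds matrix, had 4.16, 4.31 and 3.83 against 4.12, 4.16 and 4.23. The groups overlapped for all 3 genes. Their log2 differences were -0.11 (95% confidence interval from -0.32 to 0.10), -0.09 (from -0.42 to 0.23) and 0.07 (from -0.25 to 0.40). With 1 array left out they ran from -0.17 to -0.06 for Igfbp2, from -0.20 to -0.003 for Igfbp3 and from -0.06 to 0.18 for Igfbp5.

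Counted over the 9 genes taken by name, Igf2r rose, Igfbp6 fell and 7 did not pass. Over all tested genes 2.33% were called higher and 3.06% lower in 8KR cells, or 5.39% in all. The arrays of the groups did not overlap for 5 of the 9 genes, as for 29.7% of all tested genes. The median log2 difference of the 9 was 0.07, against 0.01 over all tested genes. With 9 genes, such shares are a description of these genes.

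Genes that act on the axis changed in both directions. Over 8 lists of the wider pathway, 93 of 100 genes were tested, of which 4 were called higher, 5 were called lower and 84 did not pass, so 9.68% were called. Lin28b and Adam28 were kept through the 8KR arrays alone, and without them 3 of 91 rose and 5 fell (8.79%), where 5.43% of all genes with both group means above 3.0 were called. The lists were chosen with earlier results of these data known, so these shares are a description with no test. The median log2 difference of the 93 was -0.03.

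Of 11 further binding proteins, proteases that cut binding proteins and inhibitors of those proteases, 2 rose and 9 did not pass. Pappa encodes pappalysin, the protease that cuts IGFBP4 and so frees the ligands. Its log2 intensities were 6.87, 6.35 and 6.91 in wild type and 7.84, 7.80 and 8.00 in 8KR cells, and the groups were 0.89 apart. Pappa rose by 1.17 on the log2 scale, or 2.25-fold (standard error 0.17, adjusted p = 0.0213 from limma). Without 1 array the call was kept in 1 of 6 fits, with adjusted p between 0.0306 and 0.0784. Adam12, a metalloprotease that cuts IGFBP3 and IGFBP5, rose by 0.59 (adjusted p = 0.0372). The pappalysin inhibitors Stc1 (log2 difference -0.06) and Stc2 (0.06), the related protease gene Pappa2 (-0.29) and Igfbp1 (-0.10) did not pass. The protease gene Ctsd had a log2 difference of -0.43 with groups that did not overlap, and did not pass (adjusted p = 0.0571 from limma). Ctsd passed where a group mean had to exceed 5.0, with an intensity trend and with single-symbol probe sets. The list had a median log2 difference of -0.03.

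**Figure D3:**
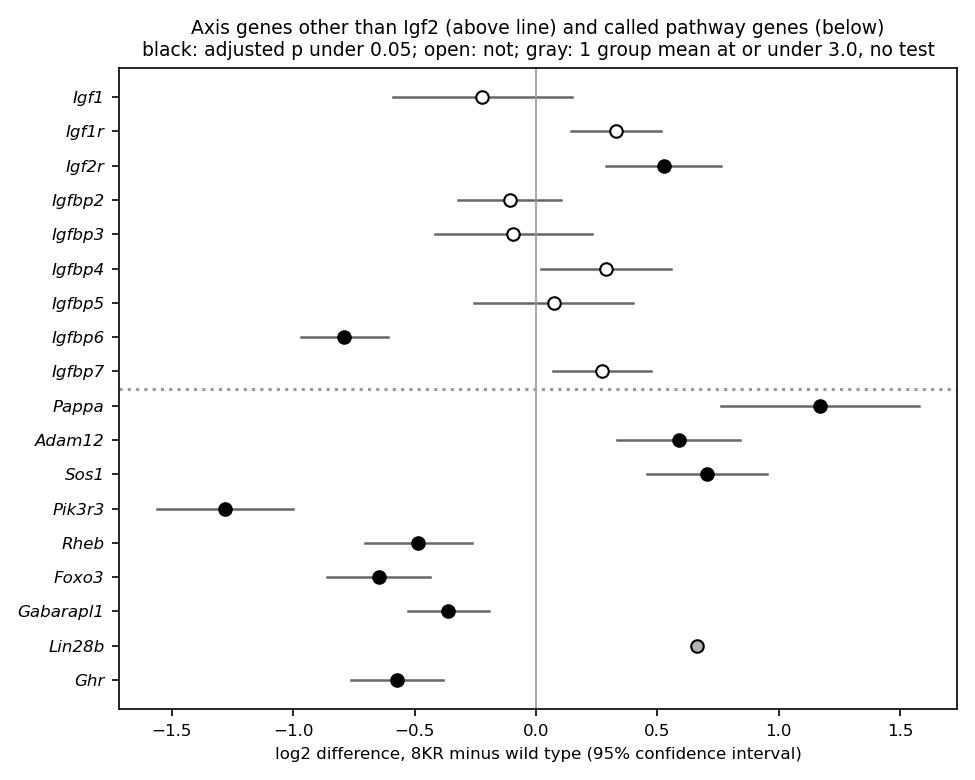
Log2 difference, 8KR minus wild type (horizontal axis), with 95% confidence intervals, for the 9 axis genes other than Igf2 (above the dotted line) and the 9 pathway genes called (below it), black where the adjusted p was under 0.05 and gray for Lin28b, which has no test and no interval. Igfbp6 lies at -0.79 and Igf2r at 0.53, and among the pathway genes Pappa at 1.17 and Pik3r3 at -1.28 lie farthest from 0.

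Downstream of the receptor, the insulin receptor gene Insr (log2 difference 0.04) and the substrate genes Irs1 (-0.34) and Irs2 (0.08) did not pass. In this list of 15 receptors and adaptors 1 passed. Sos1, the exchange factor that switches on Ras, rose by 0.70 on the log2 scale (adjusted p = 0.0216 from limma). Pkdcc and Eml4 among the 10 genes beside it also rose, and 2.33% of all tested genes were called higher. The median of the list was 0.00.

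Of 20 tested genes of PI3K, AKT, mTOR and FOXO signaling, none rose, 3 fell and 17 did not pass. Pik3r3 encodes a regulatory subunit of PI3K. Its log2 intensities were 6.20, 6.31 and 6.12 in wild type and 5.12, 4.91 and 4.77 in 8KR cells. The groups were 1.00 apart, and Pik3r3 fell by 1.28 on the log2 scale (standard error 0.12, adjusted p = 0.00599 from limma). It was the 1 gene of the 9 called pathway genes that kept its call without any 1 array (adjusted p = 0.0158 to 0.0372). Foxo3, a transcription factor that AKT keeps out of the nucleus, fell by 0.65 (adjusted p = 0.0182), and Rheb, the small GTPase that switches on mTOR, fell by 0.48 (adjusted p = 0.0432). Akt1 (0.06) and Akt2 (0.35) did not pass. The median of the list was 0.06.

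Of 14 genes that FOXO factors are known to induce, 11 had a negative log2 difference, as had 8269 of all 17145 tested genes. The median of the 14 was -0.22, against 0.01 over all tested genes. One of them passed the test, Gabarapl1, an autophagy gene that fell by 0.36 (adjusted p = 0.0455 from limma), and 13 did not. Sesn3 (-0.73, adjusted p = 0.0667) and Sesn1 (-0.68, adjusted p = 0.124) had the largest negative values, and Sesn1 is 1 of the 10 tested genes beside Foxo3. The other 3 had positive values, namely Pdk4 (0.31, adjusted p = 0.104 from limma), Ccng2 (0.17) and Cited2 (0.01). Sesn3 and Pdk4 were called where a group mean had to exceed 5.0 and with an intensity trend, and Sesn3 also with single-symbol probe sets.

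**Figure D4:**
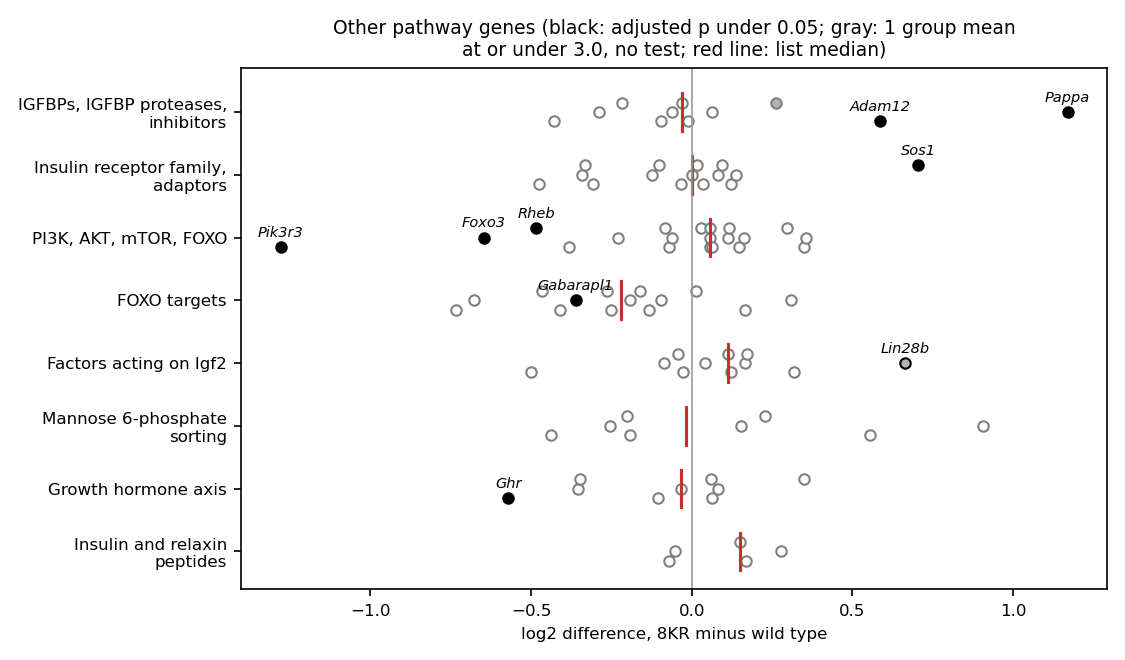
Log2 difference, 8KR minus wild type (horizontal axis), of each tested gene in the 8 pathway lists (rows), black where the adjusted p was under 0.05 and gray for Lin28b and Adam28, which have no test, with the median of each list as a red line. Of all pathway genes shown, 3 black points lie right of 0 and 5 lie left of it, and the list of FOXO targets has the lowest median, -0.22.

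Of 11 RNA-binding proteins and transcription factors that act on Igf2, Lin28b was kept through the 8KR arrays alone and the other 10 did not pass. Lin28b, which blocks the maturation of let-7 microRNAs, had log2 intensities of 2.90, 3.09 and 3.00 in wild type and 3.75, 3.64 and 3.58 in 8KR cells. Its wild type mean of 2.99 is at the background level, so its difference of 0.66 is given as a lower bound with no test. Igf2bp1, a protein that binds the leader of Igf2 messenger RNA, had a log2 difference of 0.32 (adjusted p = 0.0716 from limma). Igf2bp1 was called where a group mean had to exceed 5.0, with an intensity trend and with single-symbol probe sets. Plagl1 had the lowest difference of the list (-0.50, adjusted p = 0.185 from limma). Plag1 (-0.04), Ctcf (-0.03), Hmga2 (0.16) and Egr1 (0.04) did not pass either.

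None of 8 tested genes of mannose 6-phosphate sorting, the other task of IGF2R, passed in the limma fit. Of these, 4 had an unadjusted p under 0.05. Gga2, an adaptor that sorts this receptor, had the smallest p (log2 difference 0.55, adjusted p = 0.0667 from limma). Gga2 was called where a group mean had to exceed 5.0, with an intensity trend and with single-symbol probe sets, and Sort1 in the last of these. Of 9 genes of the growth hormone axis, which controls Igf1 in liver, the receptor gene Ghr fell by 0.57 (adjusted p = 0.0184) and 8 did not pass. None of 5 tested insulin and relaxin peptide genes passed in the limma fit (1, Ins2, had an unadjusted p under 0.05). The share of all genes at this unadjusted level was not counted. Apart from Pik3r3, the pathway genes named here as passing lost their calls when some single arrays were left out, and Adam12, Rheb, Gabarapl1 and Ghr lost theirs without any 1 of the 6, with adjusted p between 0.0552 and 0.134.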

How the data were processed

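RNA of 6 samples was read on Affymetrix Mouse Gene 1.0 ST arrays. The authors normalized the intensities and deposited them as log2 values, 1 per probe set and array, and their processing notes name Affymetrix Power Tools 1.12.0. No source used here gives the normalization method. Groups came from the sample labels. From the 35557 deposited probe sets, 7014 with no group mean above 3.0 were removed, as in the study's methods. The other 28543 were fitted across all 6 arrays by lmFit and eBayes of limma 3.58.1 under R 4.3.3 (8KR minus wild type), with Benjamini-Hochberg adjustment over all probe sets, and a gene was called at an adjusted p under 0.05. The fit was tested on simulated data. A gene was represented by its brightest probe set with a single symbol in the platform annotation. Symbols were updated by Entrez identifier through the RefSeq table of GRCm38.p6, where 21698 of 21789 probe sets matched, and that table also gave the order of genes. Confidence intervals use limma's standard errors and degrees of freedom. Sequences are from RefSeq (GRCm38.p6), and all 10 genes matched the promoter table.

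The members and the 17 other gene lists were chosen with earlier results of these data known. The rule for naming took the 10 members, every called gene of a pathway list or otherwise that with the smallest p, the 5 genes nearest to Igf2, its neighbours, and Polr2a and the Y-linked genes as checks. Other genes were named after their values were seen, as were the neighbours of pathway genes. No source used here says whether replicate numbers pair the samples. Deviations of same-numbered arrays from their group means correlated between -0.0113 and 0.00858, so no shared shift was seen over the tested probe sets. This cannot show whether samples were grown or processed in pairs. Alternatives covered the filter, normalization, variance model, array weights, the replicate block, single-symbol probe sets, the mean over a gene's probe sets and each array left out. The number of arrays limits the precision of every difference.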

Additional observations from a re-analysis of the deposited data

How the results depend on the processing

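Over all probe sets, 1245 were called. The count was 2295 where a group mean had to exceed 5.0, 2200 with an intensity trend, 77 with the replicate block and 368 to 406 without 1 array, and it was within 1.5 times of 1245 under the other settings. Of the 9 axis genes other than Igf2, 2 were called, Igf2r and Igfbp6. With an intensity trend 4 were called, Igf1r and Igfbp7 in addition, while the share of all genes called went from 5.39% to 8.91%. With the replicate block limma called 0 of the 9 (5 had an unadjusted p under 0.05) and 0.367% of all genes. With no filter, with arrays centred on their medians and without any 1 array, 1 was called, Igfbp6. Of the 93 pathway genes 9 were called, among them Lin28b, against 14 with the trend, 14 with single-symbol probe sets (where 9.55% of all genes were called), 0 in limma with the block (27 had an unadjusted p under 0.05) and 1 to 4 without 1 array, where 1.59% to 1.71% of all genes were called. How many of all genes had an unadjusted p under 0.05 was not counted, so the counts of 5 and 27 have no share to be set against. With the block the adjusted p of Igfbp6 was 0.0732, of Igf2r 0.129 and of Pik3r3 0.0530. The block uses up residual degrees of freedom, and no source used here says that its arrays share more than a number. Igf1r was called with the stricter filter, the intensity trend and single-symbol probe sets. The direction of each of these 9 genes was kept under all alternatives with 1 exception, Igfbp5, which ranged from -0.0603 without wild type replicate 3 to 0.179 without wild type replicate 2. The median over all tested genes moved by less than 0.1 under every scaling. Arrays give no read depth, and the brightness over background limits Igfbp2, Igfbp3, Igfbp5 and Lin28b.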
